A study of Bos taurus with 37 samples.

Results

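The SLC25 genes encode the mitochondrial carrier family, and they were followed here in single bovine blastocysts and in the fibroblasts used to clone them. Members were the rows of the deposited table whose symbol begins with SLC25A and a number, with SLC25A5, SLC25A6, SLC25A14, SLC25A43 and SLC25A53 left out. This rule took 39 of the 22628 rows, with 38 distinct symbols. SLC25A37 stood in the table in 2 rows, called copy 1 and copy 2 here, which were kept apart because reads can be shared between them.

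Carriers of this family are small proteins of the inner mitochondrial membrane, built from a repeated pair of membrane helices. Each one exchanges or co-transports a set of metabolites between the cytosol and the matrix, so that phosphate, citrate, malate, amino acids, nucleotides, cofactors and iron can pass a membrane that is otherwise closed to them. A few relatives sit elsewhere, such as SLC25A17 in the peroxisome and SLC25A46 in the outer mitochondrial membrane. Early embryos hold mitochondria inherited from the oocyte, and oxidative metabolism rises as the blastocyst forms its cavity.

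The study compared blastocysts from somatic cell nuclear transfer (SCNT-BLs), made by fusing adult ear skin fibroblasts with enucleated oocytes, with sham nuclear transfer blastocysts (sham NT-BLs) and with blastocysts from in vitro fertilization (IVF-BLs). Sham NT-BLs kept both parental pronuclei: fertilized zygotes lost the polar body with some of the nearby ooplasm and were then activated with 5 µM ionomycin and 2.5 mM DMAP. The paper reports activation of the fused SCNT eggs too, without naming the agents there. IVF-BLs were not manipulated. There were 6 SCNT-BLs, 6 sham NT-BLs and 6 IVF-BLs in the male set, and 6 SCNT-BLs, 5 sham NT-BLs and 6 IVF-BLs in the female set, each library from 1 embryo, with 1 library of donor fibroblasts per sex. SCNT-BLs were obtained 6 to 8 days after nuclear transfer. The paper describes the choice of embryos with 60 to 80 blastomeres in a passage on IVF-BLs and SCNT-BLs, without limiting it to a group. How many animals gave the donor cells of a sex was not given in the sources used here, so the SCNT-BLs of a sex may share 1 nuclear genome. Male and female libraries were sequenced on separate flow cells, so that sex and flow cell cannot be told apart and every group comparison was made within a sex.

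Values are FPKM, fragments scaled by transcript length and by library size, so that they are relative and not absolute amounts. They do not add up to a fixed total. Summed over all genes they came to 414105 to 601000 FPKM per blastocyst, with means of 538773 FPKM in female sham NT-BLs and 453837 FPKM in female IVF-BLs. The libraries listed 9616 to 11132 genes over 1 FPKM per blastocyst. The Y-linked genes UTY and DDX3Y stayed at or under 0.271 FPKM in all 17 female blastocysts and were at least 2.90 FPKM in all 18 male ones. XIST overlapped between the sexes, with 18.0 to 186 FPKM in female and 4.51 to 35.7 FPKM in male blastocysts. The 8 trophectoderm markers summed to at least 1793 FPKM in every blastocyst against 26.8 and 29.0 FPKM in the male and female donor cells. Blastocyst group means of KRT8 (1424 to 2541 FPKM) and KRT18 (2354 to 3408 FPKM) were the highest of this list. ELF5 averaged at most 0.1 FPKM in SCNT-BLs of both sexes. The 11 fibroblast markers summed to 14346 and 9752 FPKM in the donor cells and to 2.54 to 36.6 FPKM in the blastocysts. A blastocyst library mixes trophectoderm with inner cell mass, so that fewer cells of a type and less RNA per cell cannot be told apart.

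The members covered a wide range of levels. Over the 35 blastocysts, 12 had a mean over 10 FPKM, 18 had 1 to 10 FPKM, 6 had 0.1 to 1 FPKM and 3 had at most 0.1 FPKM. SLC25A3, the phosphate carrier that supplies ATP synthase, was the highest with a mean of 444 FPKM (138 to 906 FPKM per embryo), and SLC25A36, which carries pyrimidine nucleotides, was next with 175 FPKM (60.5 to 372 FPKM). SLC25A11 (44.6 FPKM), SLC25A30 (42.0 FPKM), SLC25A1 (38.3 FPKM), SLC25A17 (30.5 FPKM), SLC25A44 (30.4 FPKM) and SLC25A13 (29.7 FPKM) followed, and the per-embryo ranges of neighbours in this order overlapped. SLC25A31, the ADP/ATP carrier of the germ line, SLC25A2, SLC25A45 and SLC25A47 were listed at 0 in 27 to 32 of the 35 blastocysts. In all 35 embryos 15 members were over 1 FPKM. Among the 12 members over 10 FPKM the median coefficient of variation within a group lay between 23.2% and 42.6%, and among those of 0.1 to 1 FPKM it lay between 75.5% and 220.5%.

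Summed over the 39 rows, the SLC25 genes gave 1137 ± 172 FPKM in male SCNT-BLs, 1186 ± 247 FPKM in male sham NT-BLs and 1075 ± 206 FPKM in male IVF-BLs (SD, n = 6 each). The female sums were 648 ± 46.1 FPKM in SCNT-BLs (n = 6), 957 ± 116 FPKM in sham NT-BLs (n = 5) and 764 ± 100.4 FPKM in IVF-BLs (SD, n = 6). The 5 female sham NT-BLs, at 802 to 1082 FPKM, all lay above the 6 female SCNT-BLs, at 601 to 710.1 FPKM. As a share of the FPKM of all genes these groups overlapped: female sham NT-BL 3 had 0.146% and female SCNT-BL 1 had 0.154%. The mean share of female sham NT-BLs, 0.178 ± 0.0253%, was then close to that of female IVF-BLs, 0.169 ± 0.0209% (SD). Female SCNT-BLs had a mean share of 0.138 ± 0.0123%. SLC25A3 alone made up 47.8%, 51.6% and 57.2% of the sum in male SCNT-BLs, sham NT-BLs and IVF-BLs, and 27.3%, 46.1% and 32.1% in the female groups in the same order. With SLC25A3 left out, the female means came to 472 ± 56.5, 514 ± 62.5 and 515 ± 43.5 FPKM in the same order, with overlapping spreads. In the male set the remainder was 582 ± 30.0 FPKM in SCNT-BLs and 568 ± 92.8 FPKM in sham NT-BLs, above 451 ± 63.8 FPKM in IVF-BLs. Taking SLC25A36 out as well brought these to 369 ± 30.6, 334 ± 34.8 and 349 ± 32.7 FPKM. In the female set the same step gave 336 ± 50.7 FPKM in SCNT-BLs, 281 ± 18.3 FPKM in sham NT-BLs and 374 ± 24.3 FPKM in IVF-BLs, and all sham NT-BLs (259.95 to 308 FPKM) lay below all IVF-BLs (339 to 408 FPKM). These sums are a description and were not tested.

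**Figure D1:**
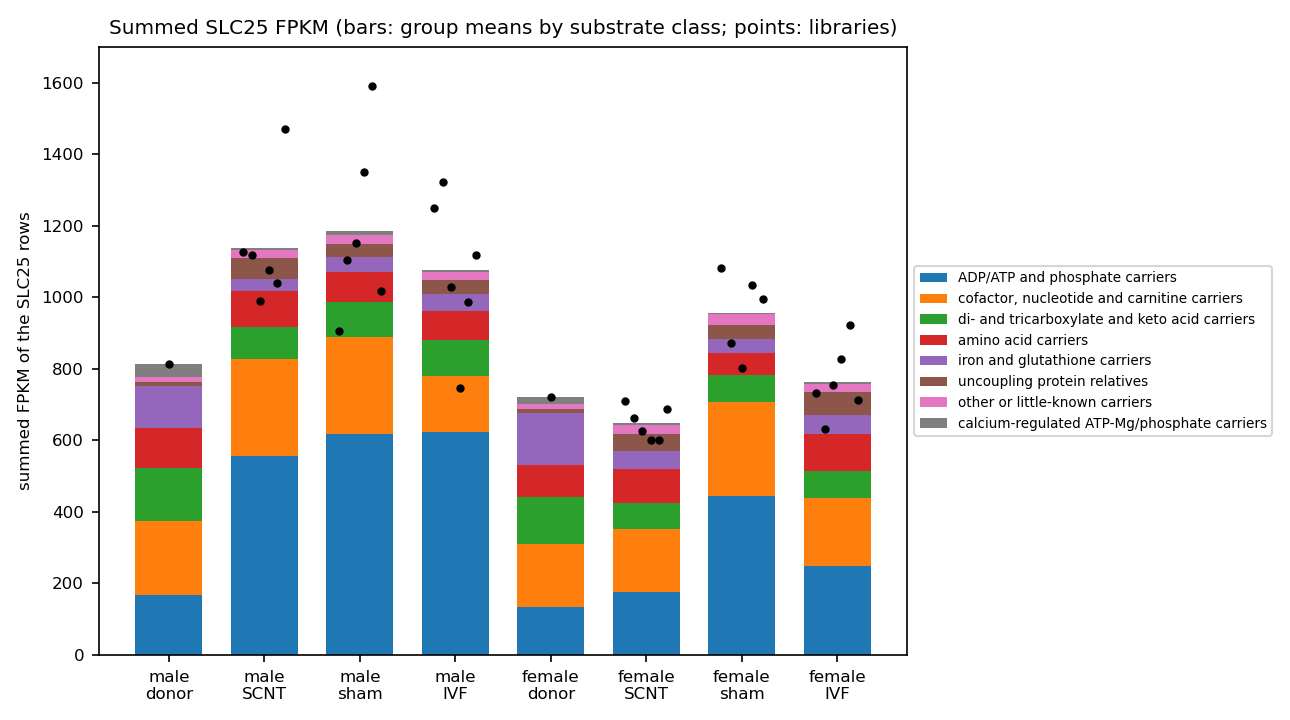
Summed FPKM of the 39 SLC25 rows (vertical axis) in donor fibroblasts, SCNT-BLs, sham NT-BLs and IVF-BLs of each sex. Stacked bars are group means by substrate class, and points are single libraries; the class with SLC25A3 (blue) is 177 FPKM in female SCNT-BLs, 444 FPKM in female sham NT-BLs and 249.9 FPKM in female IVF-BLs.

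Each comparison was tested with limma on log2(FPKM + 1) over all genes with a mean over 0.1 FPKM in the embryos compared, at an adjusted p under 0.05. In male SCNT-BLs against male IVF-BLs, 1 of 35 members tested rose and 0 fell, against 3.34% of all genes that rose and 3.64% that fell. In male sham NT-BLs against male IVF-BLs, 3 of 36 rose and 2 fell (6.13% and 5.96% of all genes). In male SCNT-BLs against male sham NT-BLs, 3 of 36 rose and 1 fell (5.67% and 6.13%). In female SCNT-BLs against female IVF-BLs, 0 of 36 passed in either direction (0.21% and 0.111% of all genes), and 1 member had an unadjusted p under 0.05. In female sham NT-BLs against female IVF-BLs, 3 of 36 rose and 3 fell (7.03% and 6.47%). In female SCNT-BLs against female sham NT-BLs, 2 of 36 rose and 3 fell (5.21% and 6.07%). Members passed at shares near those of all genes, so the counts are no result about the family, and single carriers are described below. With libraries centred on their medians, 61.1% of the calls over all genes in male sham NT-BLs against IVF-BLs were higher, against 50.7% without centring, and in the female set 65.7% against 52.1%. Centring also gave 56.2% against 47.9% in male SCNT-BLs against IVF-BLs, where the majority of calls turned, and 36.8% against 46.2% in female SCNT-BLs against sham NT-BLs.

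The median difference over the members was 0.09, 0.07 and -0.01 on the log2 scale in the male comparisons in that order, where all genes had -0.01, -0.02 and 0.01. In the female comparisons it was -0.14, -0.47 and 0.20, where all genes had -0.04, -0.09 and 0.04. In female sham NT-BLs, 13 members had a positive and 23 a negative difference to IVF-BLs, and the median lay at the lower quartile of all genes (-0.47). SCNT-BLs and sham NT-BLs were set against the same IVF-BLs, and both comparisons with sham NT-BLs used the same sham NT-BLs, so the comparisons are not independent. Differences on this scale understate the change of members near or under 1 FPKM.

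**Figure D2:**
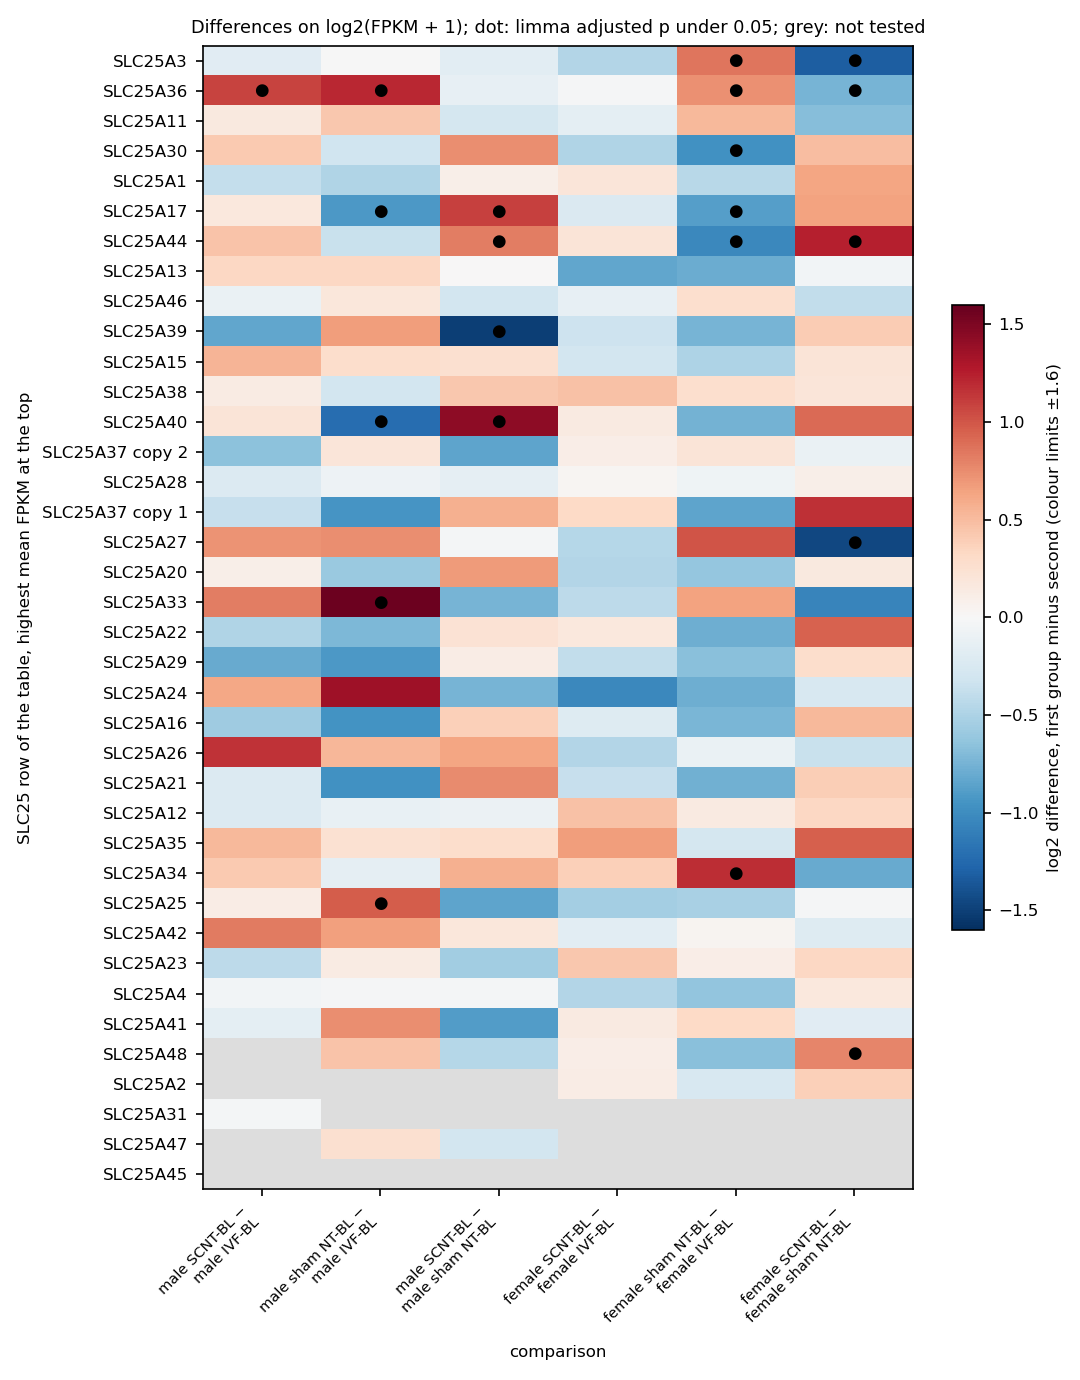
Differences of 38 of the 39 SLC25 rows (vertical axis, by mean FPKM) in the 6 comparisons (horizontal axis), as colour on the log2(FPKM + 1) scale, with red for higher in the first group named. Dots mark a limma adjusted p under 0.05 and grey cells were not tested; the dots stand mostly in the columns with sham NT-BLs, and the column of female SCNT-BLs against female IVF-BLs holds 0.

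Some markers of the embryonic lineages passed in these comparisons, though none of the listed markers did in female SCNT-BLs against IVF-BLs. Depth differed between groups, with overlapping ranges in several comparisons. POU5F1 fell in sham NT-BLs of both sexes against IVF-BLs. It was the only one of the 5 genes listed as inner cell mass markers to fall, while LIN28A rose in the female set. The 5 markers summed to 46.2 to 135 FPKM in male sham NT-BLs and 72.0 to 125 FPKM in male IVF-BLs, and to 67.0 to 81.7 FPKM in female sham NT-BLs and 87.3 to 194 FPKM in female IVF-BLs, and no marker was at 0 throughout. In the male set the 11 fibroblast markers, of which DCN and POSTN stayed at most at 0.1 FPKM on average, summed to 6.67 to 36.6 FPKM in male sham NT-BLs and 6.05 to 9.44 FPKM in male IVF-BLs, and none passed between them. Among trophectoderm and primitive endoderm markers, TFAP2C and GATA4 fell in male sham NT-BLs and GATA6 in female sham NT-BLs against IVF-BLs, and GATA3 and GATA6 rose and GATA2 fell in male SCNT-BLs against IVF-BLs. In SCNT-BLs against sham NT-BLs, CDX2, TFAP2C and GATA6 rose in the male set, and GATA6, SALL4 and the fibroblast marker THY1 rose and the oocyte marker GDF9 fell in the female set. Against male SCNT-BLs, at 2.54 to 7.34 FPKM, COL1A1 and COL1A2 were lower in SCNT-BLs, and POU5F1 was higher in SCNT-BLs than in sham NT-BLs of both sexes. Depth relative to 1 male IVF-BL, read from steps among low values, was 0.642 to 0.973 in male SCNT-BLs, 0.536 to 0.801 in sham NT-BLs and 0.779 to 1 in IVF-BLs, and 0.369 to 1.18, 0.429 to 0.824 and 0.871 to 1.45 in the female groups in the same order. Their part in the results below was not tested.

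Among the carriers of phosphate and adenine nucleotides, SLC25A3 changed in the female set. It had 138, 176 and 232 FPKM (lowest, median and highest) in female SCNT-BLs, 549, 395, 363, 521 and 389 FPKM in the 5 female sham NT-BLs and 158, 263 and 342 FPKM in female IVF-BLs. All sham NT-BLs were above all embryos of both other groups, while SCNT-BLs and IVF-BLs overlapped. Female SCNT-BLs were lower than sham NT-BLs, with a log2 difference of -1.32 ± 0.22 (SE, limma adjusted p = 0.00147), and the adjusted p stayed at or under 0.00637 with any 1 embryo left out. Female sham NT-BLs were higher than IVF-BLs by 0.86 ± 0.24 (adjusted p = 0.0245), a call lost without sham NT-BL 1 or 4 (adjusted p up to 0.0666). The difference between female SCNT-BLs and IVF-BLs, -0.47, did not pass (adjusted p = 0.463).

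Among male embryos SLC25A3 was high in every group, with 388, 526 and 906 FPKM in SCNT-BLs, 400.1, 587 and 865 FPKM in sham NT-BLs and 373, 611 and 857 FPKM in IVF-BLs. The 3 male groups overlapped, and the differences were -0.18 ± 0.23 for SCNT-BLs and -0.0034 ± 0.25 for sham NT-BLs against IVF-BLs (SE, limma adjusted p = 0.704 and 0.995). Every male blastocyst had more SLC25A3 than any female IVF-BL or SCNT-BL, a gap that falls between flow cells as well as between sexes. SLC25A4, the ADP/ATP carrier of heart and muscle, was low, with group means of 0.270 to 1.66 FPKM, and passed in no comparison.

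Among the carriers of cofactors and nucleotides, SLC25A36 was the one member to pass between SCNT-BLs and IVF-BLs. In the male set it had 158, 199.8 and 320.3 FPKM in SCNT-BLs, 168, 218 and 372 FPKM in sham NT-BLs and 60.5, 113 and 149 FPKM in IVF-BLs. All 12 manipulated male embryos lay above all 6 IVF-BLs. The differences to IVF-BLs were 1.09 ± 0.23 (SE) for SCNT-BLs (limma adjusted p = 0.0112) and 1.21 ± 0.25 for sham NT-BLs (adjusted p = 0.00492), and they passed in all alternatives and with any 1 embryo left out. SCNT-BLs and sham NT-BLs overlapped and differed by -0.13 ± 0.23 (adjusted p = 0.765).

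In the female set SLC25A36 had 113, 137 and 164 FPKM in SCNT-BLs, 225, 193, 179, 242 and 327 FPKM in sham NT-BLs and 92.1, 137 and 206 FPKM in IVF-BLs. Only the sham NT-BLs stood high, all above the SCNT-BLs and overlapping the IVF-BLs. They were higher than IVF-BLs by 0.73 ± 0.23 (SE, limma adjusted p = 0.0495), a call lost with 10 of the 11 embryos when left out singly, all but IVF-BL 5 (adjusted p up to 0.105), and with no filter. SCNT-BLs were lower than sham NT-BLs, with a log2 difference of -0.75 ± 0.21 (adjusted p = 0.0322), lost without SCNT-BL 2, 3 or 5 or sham NT-BL 4 or 5 (up to 0.0746). SCNT-BLs and IVF-BLs differed by -0.02 ± 0.21 (adjusted p = 0.981). Tested directly, the shift of SCNT-BLs from IVF-BLs differed between the female and the male set by -1.10 ± 0.31 (SE, limma adjusted p = 0.0650), which did not pass. It passed among genes with a mean over 1 FPKM.

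SLC25A33, the close relative of SLC25A36 that also carries pyrimidine nucleotides, was much lower. In the male set it had 1.04, 1.87 and 3.87 FPKM in SCNT-BLs, 2.18, 3.17 and 9.91 FPKM in sham NT-BLs and 0.0836, 0.530 and 3.73 FPKM in IVF-BLs. Sham NT-BLs were higher than IVF-BLs by 1.56 ± 0.44 (SE, limma adjusted p = 0.0277), but the groups overlapped through IVF-BL 5, and the call was lost without IVF-BL 1, 3, 4 or 6 or sham NT-BL 2 or 4 (adjusted p up to 0.0676) and with no filter. In the female set group means were 2.64 ± 1.66, 5.94 ± 2.05 and 3.60 ± 1.85 FPKM in SCNT-BLs, sham NT-BLs and IVF-BLs (SD), and it passed in no comparison.

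SLC25A17, which carries coenzyme A and related cofactors into the peroxisome, was low in sham NT-BLs. The male values were 34.9, 42.04 and 54.5 FPKM in SCNT-BLs, 12.5, 19.4 and 26.5 FPKM in sham NT-BLs and 35.2, 36.7 and 42.1 FPKM in IVF-BLs, with no overlap of sham NT-BLs with either group. Male SCNT-BLs were higher than sham NT-BLs by 1.09 ± 0.22 (SE, limma adjusted p = 0.00384). Male sham NT-BLs were lower than IVF-BLs, with a log2 difference of -0.92 ± 0.21 (adjusted p = 0.00838), and both calls held in all alternatives and with any 1 embryo left out. SCNT-BLs differed from IVF-BLs by 0.17 ± 0.15 (adjusted p = 0.572).

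The female values of SLC25A17 were 22.9, 26.6 and 40.2 FPKM in SCNT-BLs, 20.1, 24.7, 10.5, 17.4 and 16.8 FPKM in sham NT-BLs and 20.8, 34.98 and 41.5 FPKM in IVF-BLs. Sham NT-BLs were again the lowest group, overlapping both others. They were lower than IVF-BLs, with a log2 difference of -0.88 ± 0.26 (SE, limma adjusted p = 0.0325), a call lost without IVF-BL 1, 2, 4 or 6 or sham NT-BL 3, 4 or 5 (adjusted p up to 0.0912) and when libraries were centred on their medians. The difference between SCNT-BLs and sham NT-BLs, 0.65 ± 0.25, did not pass (adjusted p = 0.118). SLC25A16, SLC25A20, SLC25A26 and SLC25A42 of this class, which serve coenzyme A, acylcarnitine and S-adenosylmethionine transport, had means of 0.943 to 3.61 FPKM over the blastocysts and passed in no comparison.

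**Figure D3:**
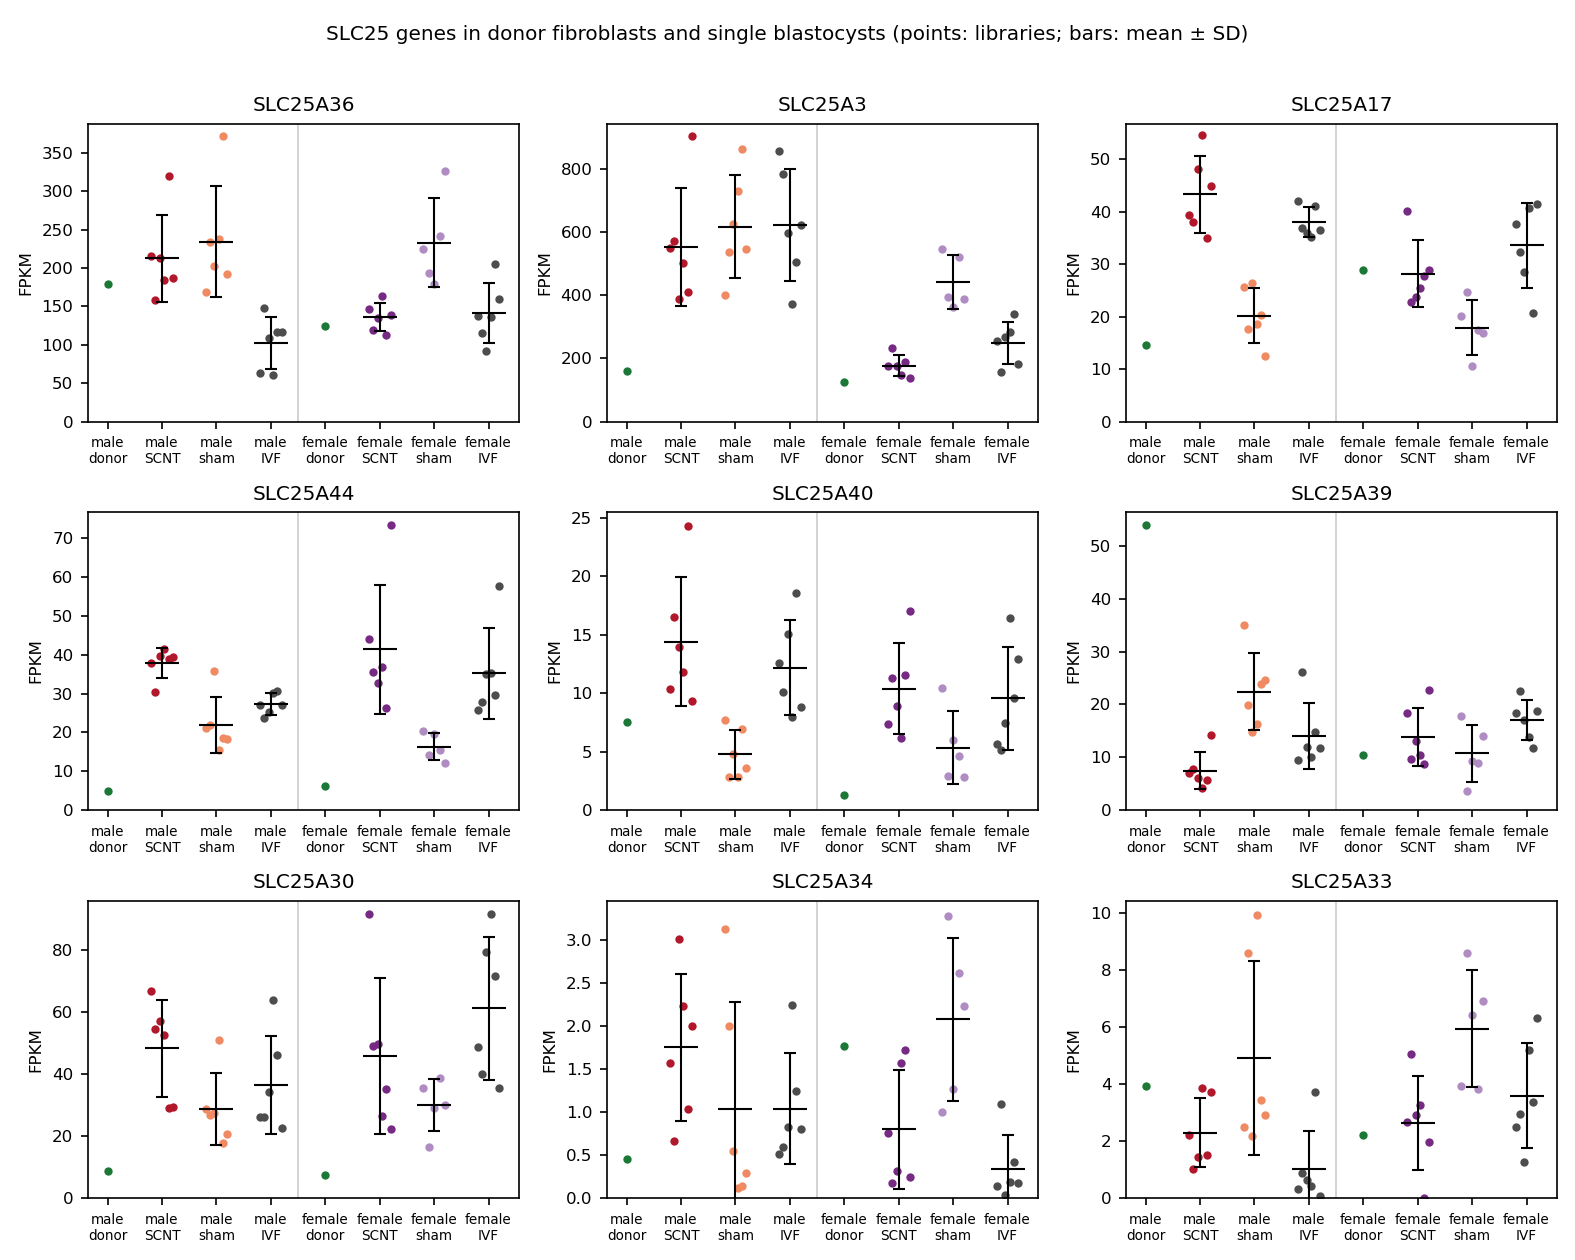
FPKM (vertical axes, linear) of 9 SLC25 genes in every library, by group and sex (horizontal axis). Points are libraries, and bars are the mean ± SD of a blastocyst group, cut off at 0; donor fibroblasts have 1 library per sex. In male embryos SLC25A36 separates SCNT-BLs and sham NT-BLs from IVF-BLs, and SLC25A17 and SLC25A40 separate sham NT-BLs from both other groups.

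Among the amino acid carriers, SLC25A44, known in mice and humans for carrying branched-chain amino acids in brown fat, was also low in sham NT-BLs. Female embryos had 26.2, 36.2 and 73.3 FPKM in SCNT-BLs, 20.4, 14.1, 19.5, 15.5 and 12.2 FPKM in sham NT-BLs and 25.8, 32.3 and 57.8 FPKM in IVF-BLs. Every female sham NT-BL lay below every SCNT-BL and IVF-BL. Female SCNT-BLs were higher than sham NT-BLs by 1.24 ± 0.27 (SE, limma adjusted p = 0.00777), and female sham NT-BLs were lower than IVF-BLs, with a log2 difference of -1.04 ± 0.25 (adjusted p = 0.0110). Both calls held with any 1 embryo left out.

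Male embryos had SLC25A44 at 30.3, 39.1 and 41.4 FPKM in SCNT-BLs, 15.3, 19.9 and 35.7 FPKM in sham NT-BLs and 23.6, 26.98 and 30.6 FPKM in IVF-BLs. SCNT-BLs were the highest group, and 1 sham NT-BL (replicate 3, 35.7 FPKM) reached their range. SCNT-BLs were higher than sham NT-BLs by 0.81 ± 0.22 (SE, limma adjusted p = 0.0212), a call lost without sham NT-BL 4 (adjusted p = 0.0512). Against IVF-BLs the difference of SCNT-BLs was 0.46 ± 0.15 (adjusted p = 0.0845) and that of sham NT-BLs -0.35 ± 0.22 (adjusted p = 0.344).

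SLC25A13, an aspartate/glutamate carrier of the malate-aspartate shuttle, gave the only unadjusted p under 0.05 between female SCNT-BLs and IVF-BLs. It had 14.5, 19.9 and 32.4 FPKM in female SCNT-BLs, 24.1, 11.6, 25.01, 20.1 and 30.7 FPKM in sham NT-BLs and 17.9, 40.7 and 63.5 FPKM in IVF-BLs. The difference between SCNT-BLs and IVF-BLs was -0.83 ± 0.29 (SE, limma adjusted p = 0.263), with overlapping groups. SLC25A12, its relative in brain and muscle, stayed at group means of 0.982 to 2.39 FPKM, and SLC25A15, the ornithine carrier, at 8.41 to 14.1 FPKM. Neither passed, nor did the glycine carrier SLC25A38, the glutamate carrier SLC25A22 or the basic amino acid carriers SLC25A29 and SLC25A2.

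The pair that serves glutathione import, SLC25A39 and its relative SLC25A40, differed between male groups in opposite directions. SLC25A39 had 4.14, 6.54 and 14.1 FPKM in male SCNT-BLs, 14.8, 21.9 and 35.1 FPKM in sham NT-BLs and 9.54, 11.8 and 26.2 FPKM in IVF-BLs. Every SCNT-BL lay below every sham NT-BL, with a log2 difference of -1.50 ± 0.30 (SE, limma adjusted p = 0.00332), and the difference passed in all alternatives and with any 1 embryo left out. Neither group passed against IVF-BLs, with -0.83 ± 0.30 for SCNT-BLs (adjusted p = 0.120) and 0.67 ± 0.28 for sham NT-BLs (adjusted p = 0.145).

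SLC25A40 had 9.32, 12.9 and 24.3 FPKM in male SCNT-BLs, 2.79, 4.16 and 7.67 FPKM in sham NT-BLs and 7.92, 11.3 and 18.5 FPKM in IVF-BLs. The sham NT-BLs were all below both other groups. SCNT-BLs were higher than sham NT-BLs by 1.43 ± 0.32 (SE, limma adjusted p = 0.00744), with any 1 embryo left out too. Sham NT-BLs were lower than IVF-BLs, with a log2 difference of -1.22 ± 0.32 (adjusted p = 0.0198), lost only without IVF-BL 5 (adjusted p = 0.0533).

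In the female set SLC25A39 averaged 13.8 ± 5.58, 10.7 ± 5.44 and 17.04 ± 3.80 FPKM and SLC25A40 10.4 ± 3.88, 5.34 ± 3.13 and 9.54 ± 4.43 FPKM in SCNT-BLs (n = 6), sham NT-BLs (n = 5) and IVF-BLs (SD, n = 6). Neither passed in any female comparison. SLC25A40 differed by 0.90 ± 0.37 between SCNT-BLs and sham NT-BLs (SE, limma adjusted p = 0.133). The iron carriers SLC25A28 (mitoferrin 2) and SLC25A37 (mitoferrin 1), at means of 5.78 to 8.43 FPKM for their 3 rows over the blastocysts, passed in no comparison.

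The relatives of the uncoupling proteins passed in the female set, with calls near the threshold that were lost when any of several embryos was left out. SLC25A30, known from kidney, had 22.4, 42.1 and 91.5 FPKM in female SCNT-BLs, 35.5, 16.6, 28.997, 38.7 and 30.03 FPKM in sham NT-BLs and 35.5, 60.1 and 91.5 FPKM in IVF-BLs. Sham NT-BLs overlapped IVF-BLs and were lower, with a log2 difference of -0.97 ± 0.29 (SE, limma adjusted p = 0.0368), lost without IVF-BL 3, 4 or 5 or sham NT-BL 2, 3 or 5 (adjusted p up to 0.0995) and with no filter, median centring or all 3 groups in one fit. Male embryos averaged 48.2 ± 15.5, 28.7 ± 11.6 and 36.5 ± 15.8 FPKM in SCNT-BLs, sham NT-BLs and IVF-BLs (SD, n = 6 each), and the gene did not pass there.

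SLC25A27, also called UCP4 and known from brain, had 0.473, 1.93 and 3.57 FPKM in female SCNT-BLs, 6.70, 4.50, 2.98, 16.1 and 7.99 FPKM in sham NT-BLs and 0.662, 3.38 and 7.21 FPKM in IVF-BLs. SCNT-BLs overlapped sham NT-BLs and were lower, with a log2 difference of -1.45 ± 0.43 (SE, limma adjusted p = 0.0386), a call lost without any 1 SCNT-BL other than replicate 4 or without sham NT-BL 1, 4 or 5 (adjusted p up to 0.111) and with no filter. Male SCNT-BLs ran from 1.45 to 27.2 FPKM, the widest spread of a male group for this gene. Their mean of 9.95 FPKM was above the 7.04 FPKM of male sham NT-BLs, unlike in the female set. SLC25A27 passed in no male comparison.

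The remaining members that passed were near or under 1 FPKM. SLC25A25, a calcium-regulated carrier of ATP-Mg and phosphate, had 0, 0.621 and 0.854 FPKM in male SCNT-BLs, 1.07, 1.42 and 3.32 FPKM in sham NT-BLs and 0, 0.261 and 1.44 FPKM in IVF-BLs. Sham NT-BLs were higher than IVF-BLs by 0.96 ± 0.29 (SE, limma adjusted p = 0.0392), with overlap through IVF-BL 3. The call was lost without any 1 IVF-BL other than replicate 3 or without sham NT-BL 1, 5 or 6 (adjusted p up to 0.0840), and also with a pseudocount of 0.1, among genes with a mean over 1 FPKM and with the replicate block. In the female set SLC25A25 averaged 0.796 ± 0.538, 0.853 ± 0.726 and 1.74 ± 1.13 FPKM in SCNT-BLs, sham NT-BLs and IVF-BLs (SD). There the sham mean was below the IVF mean, and the gene passed in no comparison. The other 3 carriers of this kind, SLC25A23, SLC25A24 and SLC25A41, did not pass.

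SLC25A34, a carrier whose substrate is unsettled, had 0.181, 0.534 and 1.73 FPKM in female SCNT-BLs, 1.003, 3.28, 1.27, 2.62 and 2.23 FPKM in sham NT-BLs and 0.0401, 0.185 and 1.10 FPKM in IVF-BLs. Sham NT-BLs were higher than IVF-BLs by 1.18 ± 0.29 (SE, limma adjusted p = 0.0147), held with any 1 embryo left out. Only IVF-BL 2, at 1.10 FPKM, reached the sham range. Male embryos averaged 1.75 ± 0.849, 1.04 ± 1.24 and 1.04 ± 0.643 FPKM of SLC25A34 in SCNT-BLs, sham NT-BLs and IVF-BLs (SD), and it passed in no male comparison.

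SLC25A48 was the one member whose shift in sham NT-BLs differed between the sexes. It had 0.493, 0.829 and 1.99 FPKM in female SCNT-BLs, 0.394, 0.313, 0, 0 and 0 FPKM in female sham NT-BLs and 0.370, 0.747 and 1.21 FPKM in female IVF-BLs. In the male set it had 0, 0 and 0.0827 FPKM in SCNT-BLs, 0, 0.535 and 0.702 FPKM in sham NT-BLs and 0, 0 and 0.0721 FPKM in IVF-BLs. It was thus lowest in sham NT-BLs among females and highest in them among males. In 5 of the 6 male IVF-BLs and 5 of the 6 male SCNT-BLs it was listed at 0, so a fall could hardly show in the male set. Sham NT-BLs overlapped IVF-BLs in both sets and lay below all SCNT-BLs in the female one.

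The difference of sham NT-BLs from IVF-BLs was -0.67 for SLC25A48 in the female set (limma adjusted p = 0.0529) and 0.46 in the male set (adjusted p = 0.110). The female minus male difference of these shifts was -1.13 ± 0.25 (SE, adjusted p = 0.0205), lost without female sham NT-BL 4 (adjusted p = 0.0527). It was the 1 of 35 members to pass, against 0.833% and 0.384% of all genes with a positive and a negative difference of shifts. Female SCNT-BLs were higher than sham NT-BLs by 0.78 ± 0.24 (adjusted p = 0.0499), lost with 10 of 11 embryos when left out singly, all but sham NT-BL 1 (adjusted p up to 0.120), and with median centring. For the shift of SCNT-BLs from IVF-BLs, 0 of 36 members passed between the sexes (1.06% and 0.849% of all genes), and 5 had an unadjusted p under 0.05.

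The carriers that link the tricarboxylic acid cycle to the cytosol were high but passed in no comparison. SLC25A11, the 2-oxoglutarate/malate carrier, had 29.7, 49.7 and 65.2 FPKM in male SCNT-BLs, 35.1, 56.4 and 85.1 FPKM in sham NT-BLs and 25.6, 38.7 and 77.1 FPKM in IVF-BLs, and its female values were 14.6, 32.3 and 49.001 FPKM, 70.7, 57.7, 39.4, 33.9 and 48.3 FPKM and 17.3, 33.97 and 68.2 FPKM in the same order of groups. The groups of each sex overlapped. SLC25A1, the citrate carrier that exports acetyl units for lipid synthesis, had 31.5, 39.8 and 45.8 FPKM in male SCNT-BLs, 23.7, 34.4 and 52.6 FPKM in sham NT-BLs and 28.4, 49.8 and 91.3 FPKM in IVF-BLs, and 28.8, 38.1 and 45.3 FPKM, 18.96, 27.2, 17.1, 33.6 and 24.9 FPKM and 16.9, 37.5 and 53.5 FPKM in the female groups. The largest difference of SLC25A1 was 0.64 ± 0.23 between female SCNT-BLs and sham NT-BLs (SE, limma adjusted p = 0.0941). SLC25A46, an outer membrane protein tied to mitochondrial fusion and fission, averaged 18.8 to 27.5 FPKM over the groups and did not pass.

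Against the SCNT-BLs made from them, the donor fibroblasts had some carriers higher and others lower. With 1 donor library per sex, these ratios have no replicate check, and they stand beside the full change from fibroblast to embryo. The male donor cells were over 2-fold higher than the mean of male SCNT-BLs, on (FPKM + 1), for 11 of the 39 rows and over 2-fold lower for 8, where 27.6% and 20.9% of all genes were. The female donor cells were over 2-fold higher for 13 and lower for 5, where 28.6% and 21.9% of all genes were. These shares were taken over the 15348 male and 15696 female genes whose donor value and SCNT-BL mean averaged over 0.1 FPKM. The 39 rows were counted without that filter. In both sexes 9 rows were past 2-fold higher and 2 past 2-fold lower. The median log2 ratio of the members was 0.14 in the male and 0.07 in the female set, where all genes had 0.12 and 0.13. These counts and medians are no result about the family, and single carriers are described below. The SLC25 genes summed to 814 FPKM in the male donor library and to 720.3 FPKM in the female one. As a share of the FPKM of all genes this was 0.145% and 0.124%. The mean shares of male and female SCNT-BLs were 0.224% and 0.138%. In the female set the donor library was thus above the SCNT-BL mean by sum and below it by share.

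SLC25A12, a calcium-regulated aspartate/glutamate carrier, was 25.5 FPKM in male donor cells against 0 to 1.91 FPKM in male SCNT-BLs, and 12.6 FPKM in female donor cells against 0.203 to 5.92 FPKM in female SCNT-BLs. SLC25A24, an ATP-Mg/phosphate carrier, was 29.5 FPKM against 1.36 to 6.67 FPKM in the male and 12.7 FPKM against 0 to 3.74 FPKM in the female set. Both lay above every SCNT-BL of their sex, with log2 ratios of 3.74 and 2.01 for SLC25A12 and 3.12 and 2.48 for SLC25A24. The iron carriers were high as well. SLC25A28 was 15.5 FPKM in male donor cells against 2.69 to 9.68 FPKM, and 42.9 FPKM in female donor cells against 4.72 to 12.4 FPKM. SLC25A37 copy 2 was 29.9 FPKM against 1.43 to 7.06 FPKM in the male and 49.5 FPKM against 6.41 to 15.03 FPKM in the female set. SLC25A4 was 7.70 and 7.98 FPKM in male and female donor cells, above every SCNT-BL except male replicate 5 at 8.84 FPKM.

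SLC25A44 and SLC25A30 were the rows past 2-fold lower in donor cells of both sexes. SLC25A44 was 4.78 FPKM in male donor cells against 30.3 to 41.4 FPKM in male SCNT-BLs, and 6.17 FPKM in female donor cells against 26.2 to 73.3 FPKM in female SCNT-BLs. SLC25A30 was 8.90 FPKM against 28.97 to 66.8 FPKM in the male and 7.62 FPKM against 22.4 to 91.5 FPKM in the female set. The log2 ratios were -2.75 and -2.57 for SLC25A44 and -2.31 and -2.44 for SLC25A30. SLC25A40 was 7.56 FPKM in male donor cells against 9.32 to 24.3 FPKM, and 1.26 FPKM in female donor cells against 6.12 to 17.01 FPKM. SLC25A46 was 9.11 FPKM against 11.4 to 28.8 FPKM in the male and 5.33 FPKM against 13.6 to 48.6 FPKM in the female set.

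SLC25A3 was 159.8 FPKM in male donor cells against 388 to 906 FPKM in male SCNT-BLs, and 127 FPKM in female donor cells against 138 to 232 FPKM in female SCNT-BLs. Its donor levels were below every SCNT-BL in both sexes, with log2 ratios of -1.79 and -0.47. SLC25A36 was 179 and 125 FPKM in male and female donor cells, within the SCNT-BL range of each sex. Other donor values lay differently against the SCNT-BLs of each sex. SLC25A39 was 53.9 FPKM in male donor cells, above all male SCNT-BLs, but 10.3 FPKM in female ones, within the female range. SLC25A17 was 14.6 FPKM in male donor cells, below all male SCNT-BLs, but 28.8 FPKM in female ones, within range.

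**Figure D4:**
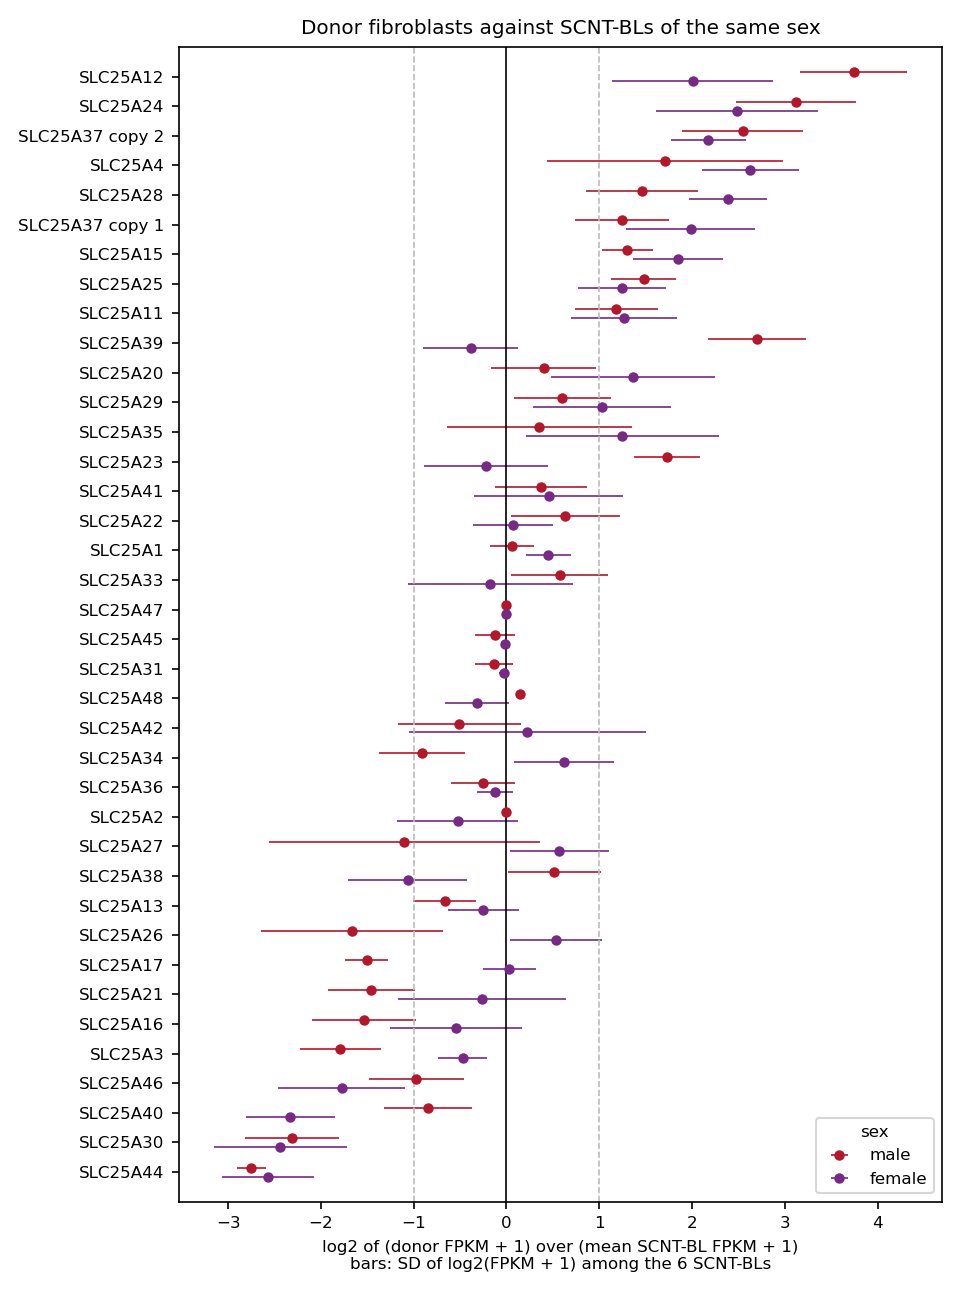
Log2 ratio of donor fibroblasts to the mean of SCNT-BLs of the same sex, on FPKM + 1 (horizontal axis), for 38 of the 39 SLC25 rows (vertical axis), males in red and females in purple. Bars are the SD of log2(FPKM + 1) among the 6 SCNT-BLs, and dashed lines mark 2-fold; rows are ordered by the mean of both sexes, with SLC25A12 (3.74) and SLC25A24 (3.12) highest in males, SLC25A4 (2.63) and SLC25A24 (2.48) highest in females, and SLC25A44 and SLC25A30 lowest in both.

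Other mitochondrial genes gave a frame for the carriers. Carriers reach the inner membrane through the TOM complex and the small TIM chaperones, which hand them to the TIM22 complex. Of 12 genes of this import route, 1 rose and 1 fell in male SCNT-BLs against IVF-BLs: the chaperones TIMM9 (1.46 on the log2 scale) and TIMM10 (-2.17). In male sham NT-BLs against IVF-BLs the receptor for carrier precursors, TOMM70A, rose (1.32) and TIMM10 fell (-1.72). In male SCNT-BLs against sham NT-BLs TIMM8B rose (2.30) and TOMM70A fell (-1.28). In female sham NT-BLs against IVF-BLs TOMM70A (0.76) and TIMM9 (1.06) rose and 0 fell. In female SCNT-BLs against sham NT-BLs TOMM70A (-1.24), TIMM9 (-1.50) and TIMM13 (-1.65) fell and 0 rose. All are limma calls adjusted over all genes, of which 3.34% rose and 3.64% fell in male SCNT-BLs against IVF-BLs, 6.13% and 5.96% in male sham NT-BLs against IVF-BLs, 5.67% and 6.13% in male SCNT-BLs against sham NT-BLs, 7.03% and 6.47% in female sham NT-BLs against IVF-BLs and 5.21% and 6.07% in female SCNT-BLs against sham NT-BLs. The counts of this and the next 3 lists stand beside these shares, and nothing particular to a list was tested.

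Among 22 genes of other mitochondrial transport, of which 19 or 20 were tested, male SCNT-BLs against IVF-BLs had a higher SFXN1 (1.23), the serine transporter, and a lower UCP2 (-1.88) and SMDT1 (-0.93), a subunit of the calcium uniporter. In male sham NT-BLs against IVF-BLs, SFXN2 rose (1.29), and UCP2 (-1.89), LETM1 (-1.44) and the outer membrane channel VDAC1 (-1.62) fell. In male SCNT-BLs against sham NT-BLs, VDAC1 (1.82), MCUR1 (1.61) and the pyruvate carrier subunit MPC1 (1.17) rose, and SFXN2 (-1.26) and SMDT1 (-0.91) fell. In female sham NT-BLs against IVF-BLs, SMDT1 (1.73), SFXN2 (1.11) and MTCH2 (0.98) were among those that rose, and VDAC1 (-1.28) and MPC1 (-0.87) fell. In female SCNT-BLs against sham NT-BLs, MPC2 (-2.52) and MTCH2 (-1.21) were among those that fell.

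Of 20 genes of the tricarboxylic acid cycle and pyruvate dehydrogenase, whose metabolites the carriers move, 0 rose and 1 fell in male SCNT-BLs against IVF-BLs (DLD, -1.06). In male sham NT-BLs against IVF-BLs, 3 rose (among them SUCLA2 1.29, DLST 1.12) and 4 fell (MDH2 -1.52, CS -1.25, SDHC -1.11, SUCLG1 -1.09). In male SCNT-BLs against sham NT-BLs, 6 rose (PDHB 1.37, FH 1.27, SDHC 1.24, CS 1.06, MDH2 1.04, SUCLG1 0.91) and 4 fell (among them SUCLA2 -1.08, DLD -0.96, OGDH -0.86). In female sham NT-BLs against IVF-BLs, 5 rose (among them SDHA 1.31, SDHB 1.08, SUCLA2 0.88, IDH3B 0.79) and 3 fell (PDHB -1.21, PDHX -1.01, MDH2 -0.75). In female SCNT-BLs against sham NT-BLs, PDHB (1.63) and PDHX (1.03) rose, and SUCLA2 (-1.20) was among those that fell.

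Of 13 genes of mitochondrial biogenesis, PPRC1 fell in male SCNT-BLs against IVF-BLs (-0.68). ESRRB, an orphan receptor also known from pluripotent cells, fell in sham NT-BLs against IVF-BLs in both the male (-1.43) and the female set (-2.28) and was higher in SCNT-BLs than in sham NT-BLs in both (1.20 and 2.34). PPRC1 was higher in female SCNT-BLs than in sham NT-BLs (0.99). The 4 lists had 0 calls between female SCNT-BLs and IVF-BLs, where 4, 5, 4 and 1 of their genes had an unadjusted p under 0.05. Taking the comparisons in the order of the counts of members above, the median log2 difference of the import genes was 0.00, -0.10, 0.05, -0.31, -0.03 and 0.08. Other transport had medians of 0.16, -0.20, 0.28, -0.23, -0.24 and -0.16. The tricarboxylic acid cycle genes had 0.12, -0.01, 0.16, -0.19, -0.23 and -0.25, and the biogenesis genes -0.23, 0.19, -0.34, 0.05, -0.20 and 0.27, beside the medians over all genes given above.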

How the data were processed

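The authors amplified poly-A RNA of single blastocysts and of donor fibroblasts by pico-profiling and sequenced paired ends, males and females on separate flow cells. The submitters' processing notes name Trim Galore, TopHat, Cufflinks and Cuffdiff and the UMD3.1 build. The authors deposited 1 table of FPKM for 37 libraries, with no counts or depths in it, so that only relative depth was read, from low values; the sequencing depths the study lists were not used here. An exact 0 means listed at 0, and no counting interval can be had. Columns were assigned to samples by name. Results of some genes are not reported here, though their values are in the sums, counts and medians. Depth limits members near or under 1 FPKM most.

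FPKM as deposited were tested with limma 3.58.1 (lmFit, eBayes with trend; R 4.3.3) on log2(FPKM + 1) among genes with a mean over 0.1 FPKM in the embryos compared, two-sided, adjusted by Benjamini-Hochberg across every gene tested, with a threshold of 0.05. There were 6 comparisons within a sex, fitted on the 2 groups compared, and 2 interactions of sex with origin. The fit was also run on simulated data with normal spreads and known changes. Those changes were placed only in genes with a mean log2(FPKM + 1) over 1, so the run does not cover calls in lower genes. Donor fibroblasts against SCNT-BLs, sums over members and levels are descriptions. p-values measure the spread between embryos of these groups.

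Values per embryo are given for members past the threshold anywhere, the 6 with the highest mean, and 5 per direction with the largest donor ratio, and SLC25A13 was added after its values were seen. Members and lists were chosen with earlier results of these data known. All 38 symbols matched RefSeq gene names (assembly ARS-UCD2.0, which served for names and gene order); a second locus beside SLC25A37 has that symbol as a synonym. SLC25A23 and SLC25A41 are neighbours there, and reads of such copies and neighbours may be shared. Names from synonyms were used for genes listed under older symbols, such as MPC1, MPC2, SMDT1 and MCUR1. Alternatives were a pseudocount of 0.1, no filter, a mean over 1 FPKM, median centring, scaling to the 75th percentile, the replicate number as a block, all 3 groups in one fit, and each embryo left out.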

Additional observations from a re-analysis of the deposited data

Results flagged for a closer look

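In each blastocyst group, the lowest or highest embryo was compared with its nearest neighbour for the named members and for the SLC25 sum, in 126 sets. In 23 sets the gap to the nearest embryo exceeded the 95% limit of Dixon's test for that number of embryos. That limit is meant for normally distributed values. FPKM were used here without logs, and some sets held mostly zeros, so the count cannot be set against a chance rate. The values below are single embryos that stood apart from their own group.

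Among male SCNT-BLs, replicate 5 was highest for SLC25A36 (320.3 FPKM) and SLC25A4 (8.84 FPKM), and replicate 6 was highest for SLC25A3 (905.6 FPKM), SLC25A39 (14.11 FPKM), SLC25A48 (0.083 FPKM, with the other 5 listed at 0) and the SLC25 sum (1472 FPKM). Replicate 3 was highest for SLC25A24 (6.67 FPKM), and replicate 2 was lowest for SLC25A44 (30.33 FPKM). Among male sham NT-BLs, replicate 5 was highest for SLC25A36 (372.5 FPKM), replicate 4 for SLC25A30 (50.76 FPKM), replicate 6 for SLC25A4 (4.794 FPKM) and replicate 3 for SLC25A44 (35.72 FPKM). Among male IVF-BLs, replicate 3 was highest for SLC25A25 (1.437 FPKM) and SLC25A48 (0.072 FPKM), replicate 5 for SLC25A33 (3.728 FPKM), and replicate 2 for SLC25A39 (26.24 FPKM) and SLC25A27 (10.39 FPKM).

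Among female SCNT-BLs, replicate 1 was highest for SLC25A17 (40.18 FPKM), replicate 5 for SLC25A48 (1.989 FPKM) and replicate 6 for SLC25A46 (48.61 FPKM). Among female IVF-BLs, replicate 2 was highest for SLC25A34 (1.096 FPKM) and SLC25A4 (2.537 FPKM), and replicate 6 for SLC25A44 (57.77 FPKM).

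The shift of SLC25A48 in sham NT-BLs against IVF-BLs differed between the sexes by -1.126 on the log2 scale, female minus male (limma adjusted p = 0.0205). Its levels were at most 1.99 FPKM in all blastocysts, and sex and flow cell cannot be told apart. In 5 of the 6 male IVF-BLs it was listed at 0, so a fall could hardly show in the male set.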

How the results depend on the processing

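No called member changed the sign of its difference under the alternatives run. The counts of members that moved by over 1.5 times were as follows. Without a filter, 2 members (SLC25A36 and SLC25A44) rose in male SCNT-BLs against IVF-BLs and 2 fell in male SCNT-BLs against sham NT-BLs. With all 3 groups in one fit, 5 rose in male sham NT-BLs against IVF-BLs and 3 fell in male SCNT-BLs against sham NT-BLs. With median centring, 2 fell in male SCNT-BLs against sham NT-BLs, 1 fell in female sham NT-BLs against IVF-BLs and 1 rose in female SCNT-BLs against sham NT-BLs. Among genes with a mean over 1 FPKM, 1 rose in female SCNT-BLs against sham NT-BLs, SLC25A36 alone (1 member) differed between the sexes in the SCNT-BL shift, and 0 in the sham NT-BL shift, where SLC25A48 is filtered out.

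Replicate numbers are shared between groups, but same-numbered embryos did not deviate together (correlations of -0.214 to 0.0688, none over 0.1), so they share only a number. With the replicate block, 1 member rose and 1 fell in female SCNT-BLs against sham NT-BLs, and 0 passed for the sham NT-BL shift between sexes. SLC25A44 lost its calls in male SCNT-BLs against sham NT-BLs and female sham NT-BLs against IVF-BLs (adjusted p = 0.0618 and 0.0504), as did SLC25A3 and SLC25A17 in female sham NT-BLs against IVF-BLs (0.0776 and 0.0804), SLC25A36, SLC25A27 and SLC25A48 in female SCNT-BLs against sham NT-BLs (0.0877, 0.0846 and 0.133), SLC25A25 in male sham NT-BLs against IVF-BLs (0.0773) and SLC25A48 in the sham NT-BL shift between sexes (0.103). SLC25A13, not called without the block, passed with it in female sham NT-BLs against IVF-BLs, and the block changed no other call of a member. All genes called were 652, 1306, 1060, 20, 94 and 69 under the block for male SCNT-BLs against IVF-BLs, female sham NT-BLs against IVF-BLs, female SCNT-BLs against sham NT-BLs, female SCNT-BLs against IVF-BLs and the SCNT-BL and sham NT-BL shifts between sexes.

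With each embryo left out in turn, members that rose and fell numbered 1 to 2 and 0 in male SCNT-BLs against IVF-BLs, 1 to 3 and 1 to 3 in male sham NT-BLs against IVF-BLs, 3 and 1 to 3 in male SCNT-BLs against sham NT-BLs, 0 and 0 in female SCNT-BLs against IVF-BLs, 1 to 3 and 1 to 5 in female sham NT-BLs against IVF-BLs and 1 to 2 and 1 to 3 in female SCNT-BLs against sham NT-BLs. Between sexes, 0 to 1 had a lower shift in either interaction and 0 a higher one. Over all genes, female SCNT-BLs against IVF-BLs ranged from 1 call (no filter, or without SCNT-BL 3) to 75 (mean over 1 FPKM), where 49 were called. Median centring put the median of all genes in female sham NT-BLs against IVF-BLs at 0.03, against -0.09 without it.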
